A study of Arabidopsis thaliana with 18 samples.

Results

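Of the 22209 Arabidopsis genes listed, 68 stayed within 0.7 to 1.4 times their 0 h level at 1 h on jasmonic acid (JA). At 3 h they stood at least 2 times as high as at 1 h. Both held in wild type seedlings and in the mutant ecap-2 alike.
Levels are in FPKM, fragments mapped to a transcript scaled by its length and by the size of the library.
In each genotype the group mean of FPKM + 1 at 1 h had to be 0.7 to 1.4 times that at 0 h, and the mean at 3 h at least 2 times that at 1 h.
The wild type mean at 3 h also had to reach 3 FPKM.
Of 72 genes that met these limits, 4 were set aside by identifier and were not analysed here.
The course over time is therefore how the genes were picked, and it is described below without a test.
The difference between the genotypes was not used directly to pick them. The wild type limit at 3 h and the shared limits on the 0 h to 1 h and 1 h to 3 h ratios do bear on it.

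RNA came from whole Col-0 wild type and ecap-2 seedlings that were 6 days old, collected at 0 h (untreated) or after 1 h or 3 h on plates with 50 µM JA.
There were 6 groups and 3 libraries in each.
From its title, the series concerns ECAP as the link between JAZ proteins and TPR2, a co-repressor, in restraint of anthocyanin under JA, and ecap-2 is the sole mutant line.
Seedlings moved to plates without JA were not analysed here, so JA, the transfer and the time of day cannot be told apart.
Whether separate cultures gave the replicates is not stated in the labels, and the p-values therefore speak only to how far these libraries differed from each other, and that spread could be technical.
In whole seedlings, a change in RNA per cell and a change in the share of a cell type cannot be told apart.

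JA is perceived as its isoleucine conjugate, which brings JAZ repressors to the COI1 ubiquitin ligase for destruction and frees MYC-type activators, and many of their target genes respond within the hour.
Seedlings also carry a circadian clock, in which the MYB-like factors CCA1 and LHY accumulate around dawn and hold down genes that carry the evening element in their promoters.
As those morning factors decline, day and evening genes of the clock rise.

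The libraries were alike within groups, with a lowest correlation of 0.990 between libraries of a group on the log2(FPKM + 1) scale.
Total FPKM ran from 687996 to 765209 in wild type and reached 853858 to 912834 in ecap-2 at 3 h, and relative depth, estimated from low genes, from 0.740 to 1.27.
AT3G58110, the locus taken here as ECAP, measured 12.3 to 16.1 FPKM in wild type and 2.34 to 2.89 in ecap-2, with no overlap between the genotypes.
Of 7 root markers all 7 had a mean of at least 1 FPKM in every group, and their summed level moved with time, with 2157 to 2342 FPKM at 0 h and 3992 to 4187 at 3 h in wild type, and 2738 to 2952 and then 4565 to 5196 in the mutant. A sum can rest on its most abundant gene, so it does not show that all 7 moved.
The summed level of the 2 shoot markers analysed, of 4 listed, was 18162 to 20274 FPKM at 0 h and 19653 to 20394 at 3 h in wild type, and 24694 to 29199 and 28893 to 32447 in ecap-2.
Of 3 seed storage markers the sum stayed at or under 39.7 FPKM, and the 2 pollen markers were at or near 0.
The part of these shifts in the levels below was not tested.

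The late rise was moderate for most of the 68 genes and steep for a few.
From 1 h to 3 h the ratio of mean FPKM + 1 had a median of 2.496 in wild type, with quartiles of 2.25 and 3.01, and a median of 2.53 in ecap-2, with quartiles of 2.25 and 3.27.
At 1 h the median ratio to 0 h was 1.00 in wild type and 0.949 in ecap-2. The ratios ran from 0.708 to 1.37 in wild type and from 0.703 to 1.37 in ecap-2. Some genes dipped first, such as HMGB2 at 0.780 and 0.703 and ELF3 at 0.774 and 0.812. A level at 3 h at least 2 times that at 1 h is therefore not always 2 times that at 0 h.
A ratio of at least 3 was reached by 17 genes in wild type, 23 in ecap-2 and 10 in both.
Among genes above 0 at 1 h, the steepest in wild type were Fes1B at 8.67, PORB at 6.05 and WCRKC1 at 5.82.
At 3 h, 8 genes had a wild type mean of at least 100 FPKM and 19 had a mean under 10.

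In 67 of the 68 genes the lowest 3 h library lay above the highest 1 h library, in wild type and in ecap-2, where the same held for 21.1% of all tested genes in wild type and 28.2% in ecap-2.
The exception was AT5G59895, an uncharacterized protein listed at 0 in all 0 h and 1 h libraries and also in 2 wild type libraries and 1 ecap-2 library at 3 h.
Nearest inside the limits were PMR5, with a wild type ratio of 2.01 from 1 h to 3 h, ELF3, with an ecap-2 ratio of 2.02, and HMGB2, with an ecap-2 ratio of 0.703 from 0 h to 1 h.
Nearest outside were CYP83A1, with a wild type ratio of 1.99, AT1G67660, with an ecap-2 ratio of 1.98, and LOL1, with a wild type ratio of 1.405 from 0 h to 1 h that was just over the limit.
All 68 genes passed the filter on low values, under which 3 or more libraries had to reach 1 FPKM, and 4 of them (Fes1B, AT4G01130, AT4G40063 and AT5G59895) passed it through their 3 h libraries.

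The genes lay on all 5 chromosomes, with 18, 15, 7, 15 and 13 from chromosome 1 to chromosome 5.
The catalase genes CAT3 and CAT1 were direct neighbours on chromosome 1, with 95 bases between them.
AT5G38000 and AT5G38030 had 2 protein-coding genes between them.
The median of 4 exons was that of all genes, and the median spliced length was 1605.5 bases against 1635.
Of the 68 genes 36 had a symbol in the RefSeq TAIR10.1 gene table, and 6 were annotated as uncharacterized proteins.
Reads of near-identical family copies could be split by the authors' counting, so the levels of LHB1B1 and IGMT1, which belong to families of close copies, and of AT5G38000 are uncertain, and whether the counting used strand is not given in the sources used here.

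**Figure D1:**
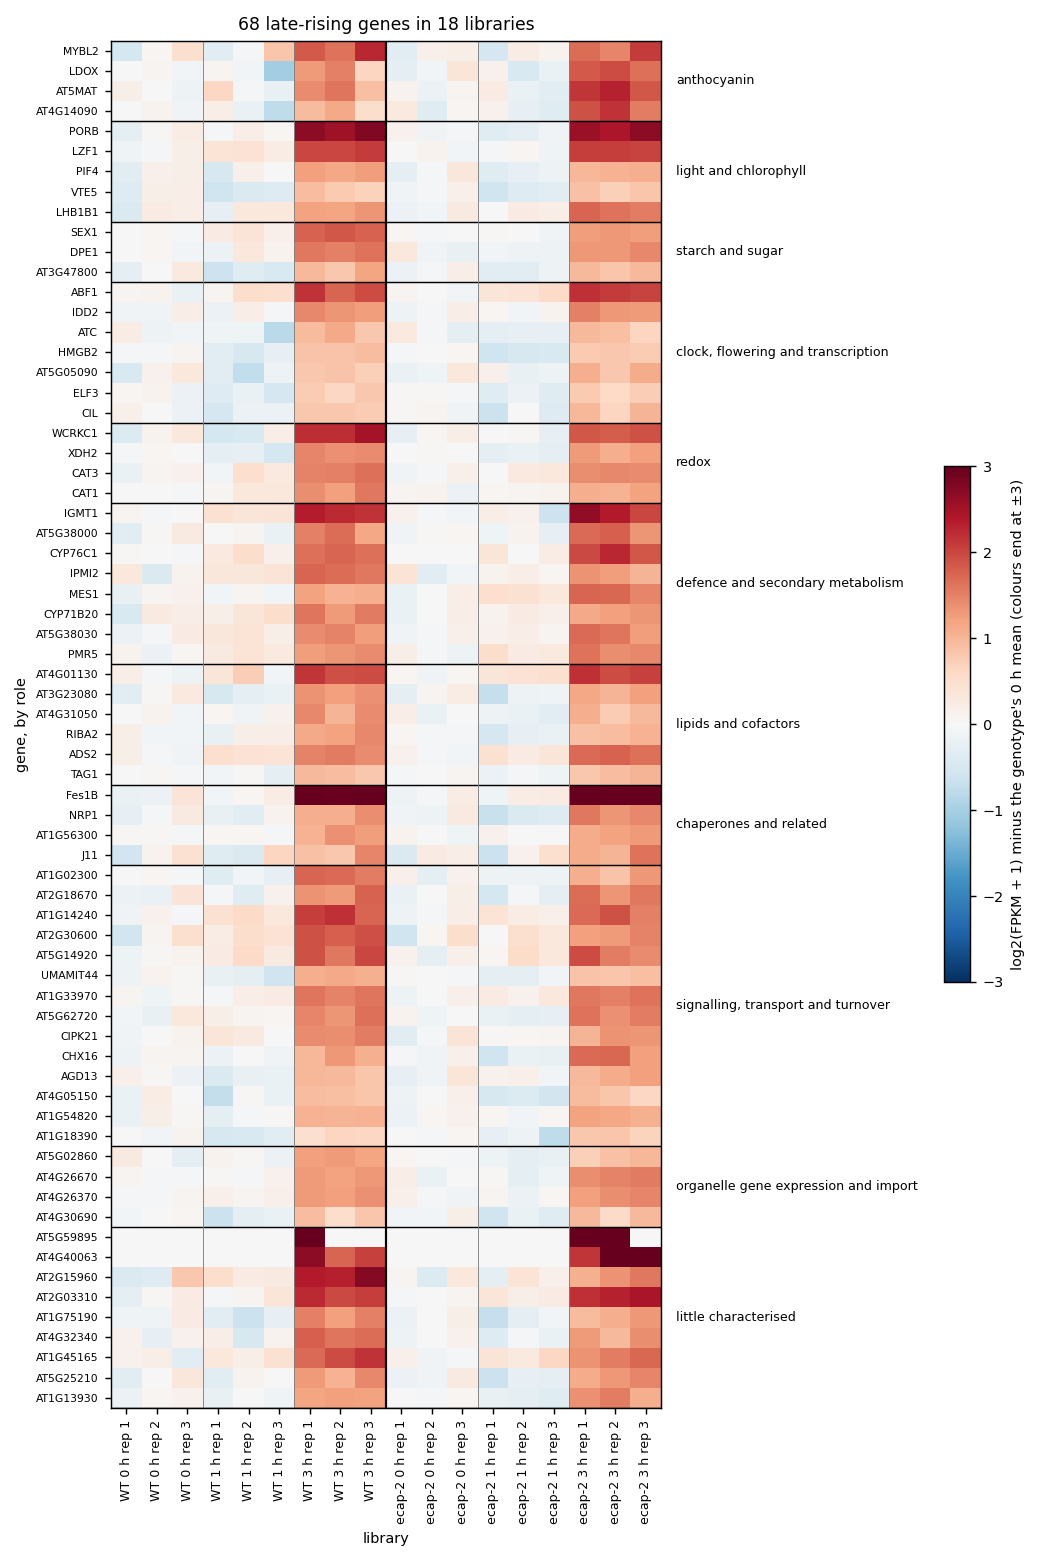
Level of each of the 68 genes (rows, grouped by role) in the 18 libraries (columns) as log2(FPKM + 1) minus the mean of the genotype's 0 h libraries, in colours that end at -3 and 3. The 1 h columns stay pale in wild type and ecap-2 and the 3 h columns are red, apart from AT5G59895, which is at 0 in 2 wild type libraries and 1 ecap-2 library at 3 h.

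The promoters of the late genes held the evening element more often than promoters at large.
The element, AAAATATCT on either strand, lay within the 250 bases before the gene start in 9 of 68 genes, or 13.2%, and in 546 of 22122 promoters, or 2.47%.
Other genes at least 2 times higher at 3 h than at 1 h in both genotypes held it in 19 of 151 promoters, or 12.6%, a share close to that of the late genes.
Genes at least 2 times lower at 3 h held it in 3 of 121, or 2.48%, and genes at least 2 times higher at 1 h than at 0 h in 17 of 525, or 3.24%.
With 500 bases the shares were 17.6% of the late genes and 4.47% of all promoters, and with 1000 bases 23.5% and 7.35%.
The share of A and T bases was close, with a median of 69.6% in the late genes and 68.8% in all promoters.
These are counts of letters, given without a test, and a match is not a shown binding site.

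The 9 promoters with the element belonged to genes of different roles: CAT3 (catalase), MYBL2 (a MYB repressor), PORB (chlorophyll synthesis), CYP71B20 (a cytochrome P450), AT3G47800 (a galactose mutarotase-like protein), AT4G31050 (octanoyltransferase LIP2), AT4G26370 (a NusB-domain protein), AT2G30600 (a BTB/POZ protein) and AT2G15960 (a stress-induced protein).
The stretches of all but AT4G26370 are shown because they carry the motif whose share was higher than among promoters at large. Each is read 5′ to 3′ on the strand of its gene from the RefSeq TAIR10.1 genome, in lower case, with the evening element or its reverse complement AGATATTTT in capitals.
CAT3, chr1:7142722-7142971, plus strand: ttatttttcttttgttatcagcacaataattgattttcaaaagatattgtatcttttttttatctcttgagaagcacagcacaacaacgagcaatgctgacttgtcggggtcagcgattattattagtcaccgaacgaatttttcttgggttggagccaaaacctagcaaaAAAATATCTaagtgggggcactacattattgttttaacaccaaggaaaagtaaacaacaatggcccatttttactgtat
MYBL2, chr1:26796735-26796763, minus strand: cggaagcttcAGATATTTTatcaaataat
PORB, chr4:13725379-13725438, plus strand: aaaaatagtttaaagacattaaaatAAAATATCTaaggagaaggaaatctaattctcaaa
CYP71B20, chr3:9580144-9580203, minus strand: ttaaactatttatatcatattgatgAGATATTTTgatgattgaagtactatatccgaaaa
AT3G47800, chr3:17634554-17634803, plus strand: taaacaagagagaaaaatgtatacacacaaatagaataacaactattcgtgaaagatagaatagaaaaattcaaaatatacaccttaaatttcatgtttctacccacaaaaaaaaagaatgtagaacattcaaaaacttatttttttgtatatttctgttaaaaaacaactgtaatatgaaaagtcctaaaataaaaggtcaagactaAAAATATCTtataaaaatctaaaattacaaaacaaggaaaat
AT4G31050, chr4:15114139-15114198, plus strand: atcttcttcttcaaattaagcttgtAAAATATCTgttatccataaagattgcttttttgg
AT2G30600, chr2:13036774-13036813, plus strand: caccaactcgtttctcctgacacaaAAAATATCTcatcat
AT2G15960, chr2:6946963-6947087, plus strand: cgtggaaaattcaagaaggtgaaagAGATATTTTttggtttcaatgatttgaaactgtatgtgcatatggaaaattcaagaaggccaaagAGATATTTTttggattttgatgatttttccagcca

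AT2G15960 held 2 copies of the element.
The windows of MYBL2, PORB, AT4G31050 and AT2G15960 overlap the neighbouring genes AT1G71040, AT4G27435, AT4G31040 and AT2G15950, and of the stretches printed that of MYBL2 lies within the overlap.
Of the other motifs counted on both strands, none stood as far from its share in all promoters.
The G-box CACGTG, a binding motif of MYC and other bHLH or bZIP factors, lay in 3 of 68 late genes, or 4.41%, and in 7.16% of all promoters.
The T/G-box AACGTG lay in 8.82% against 7.92%, the CCA1-binding site AAAAATCT in 8.82% against 6.66%, and the W-box core TTGACC in 10.3% against 12.3%.
The GCC-box GCCGCC lay in 1.47% against 1.84%, the drought-responsive element ACCGAC in 5.88% against 4.92%, and the GATA I-box GATAAG in 14.7% against 12.2%.
The site II element TGGGCC lay in 17.6% against 14.9%, the telobox AAACCCTA in 1.47% against 3.96%, and the heat shock element GAANNTTC in 13.2% against 9.29%.
The MYB site ACCTACC lay in 1.47% against 1.18%, its variant ACCAACC in 2.94% against 2.79%, and the TATA box TATAAA in 50.0% against 47.4%.
None of these strings contains the evening element or lies inside it.

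**Figure D2:**
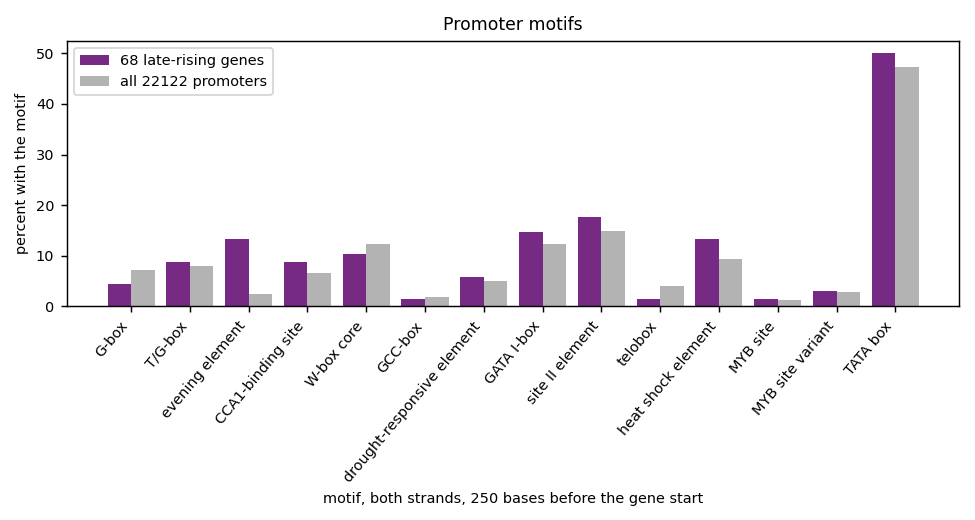
Percent of promoters (vertical axis) that hold each of 14 motifs (horizontal axis) on either strand in the 250 bases before the gene start, for the 68 late genes (purple) and all 22122 promoters (grey). The evening element stands at 13.2% in the late genes against 2.47%, while the G-box stands at 4.41% against 7.16%.

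Clock genes on lists drawn up with earlier results of these data known moved over the same interval.
All 8 morning genes were tested, and from 1 h to 3 h 7 of them fell and 0 rose in wild type, and likewise 7 and 0 in ecap-2, where 14.5% of all tested genes fell in wild type and 19.7% in ecap-2 (limma, Benjamini-Hochberg adjusted p under 0.05).
Their median log2 change was -0.86 in wild type and -0.83 in ecap-2, against -0.01 and 0.01 over all tested genes.
LHY went from 88.4 ± 12.1 FPKM (SD, n = 3) at 1 h to 17.2 ± 1.55 at 3 h in wild type, and CCA1 from 89.5 ± 5.80 to 24.4 ± 2.08.
LHY had been at 229.7 ± 35.8 FPKM at 0 h, so its decline was under way at 1 h.

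Of 12 tested day and evening clock genes, 7 rose and 0 fell in wild type and 9 rose and 0 fell in ecap-2 from 1 h to 3 h, where 14.5% of all tested genes rose in wild type and 20.9% in ecap-2 (limma, adjusted p under 0.05).
From 0 h to 1 h 2 of these genes had risen and 4 had fallen in each genotype (limma, adjusted p under 0.05). From 1 h to 3 h the median log2 change of the list was 0.43 in wild type and 0.52 in ecap-2.
ELF3, a part of the evening complex that restrains growth genes at night, is the sole clock gene of that list among the 68, and without it 6 of 11 rose in wild type and 8 of 11 in ecap-2.
PRR7, a daytime repressor of the morning genes, went from 15.8 ± 1.397 FPKM at 0 h to 23.6 ± 0.585 at 1 h and 54.0 ± 0.687 at 3 h in wild type, and GI, a day and evening gene, went from 10.09 ± 1.34 at 1 h to 20.4 ± 0.422 at 3 h. ELF4 and TOC1 of the same list dipped at 1 h. In wild type ELF4 measured 6.11 ± 1.03, 1.49 ± 0.397 and 5.95 ± 0.457 FPKM at 0, 1 and 3 h. TOC1 measured 8.10 ± 0.453, 6.44 ± 0.251 and 9.99 ± 0.0814.

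**Figure D3:**
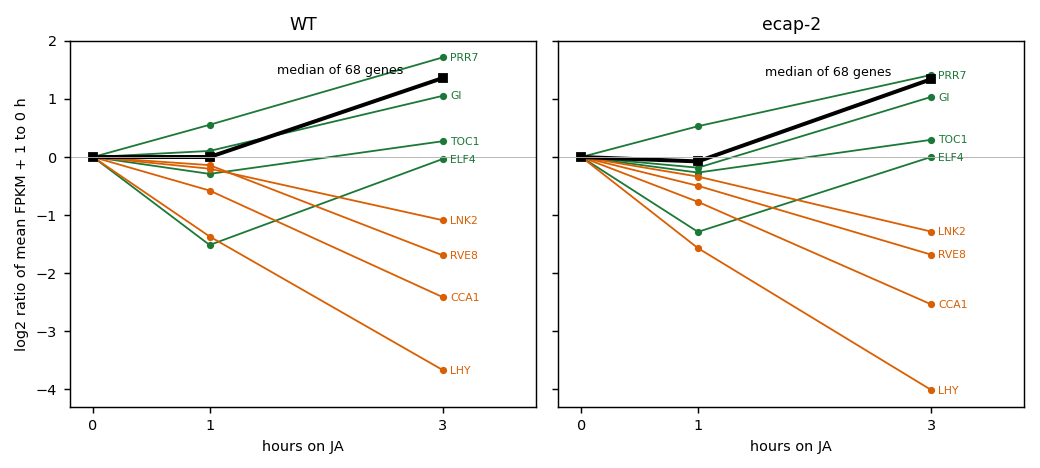
Log2 ratio of mean FPKM + 1 to that of 0 h (vertical axis) against hours on JA (horizontal axis) in wild type (left) and ecap-2 (right), for 4 morning clock genes (orange), 4 day or evening clock genes (green) and the median of the 68 late genes (black). The late genes stay near 0 at 1 h and stand 1.36 higher at 3 h in wild type and 1.34 higher in ecap-2, while LHY, CCA1, RVE8 and LNK2 decline.

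JA pathway lists rose mostly by 1 h. From 1 h to 3 h some rose further, while more JA synthesis genes fell than rose.
All 11 tested JA synthesis genes rose from 0 h to 1 h in each genotype, where 17.3% of all tested genes rose in wild type and 16.6% in ecap-2, and from 1 h to 3 h 2 rose and 7 fell in wild type and 4 rose and 6 fell in ecap-2 (limma, adjusted p under 0.05).
The median log2 change of the JA synthesis genes from 1 h to 3 h was -0.41 in wild type and -0.20 in ecap-2. None of them was among the 68.
Of 13 JA-induced defence and storage genes, 11 rose in wild type and 10 in ecap-2 by 1 h, and from 1 h to 3 h 9 rose and 2 fell in each. Their median log2 change from 1 h to 3 h was 1.13 in wild type and 1.35 in ecap-2, above that of the day and evening clock genes.
Of 12 aliphatic glucosinolate genes, 12 rose in wild type and 11 in ecap-2 by 1 h, and from 1 h to 3 h 6 rose and 1 fell in wild type, while 8 rose and 1 fell in ecap-2.
Of 9 genes of abscisic acid and cold response, 1 rose and 4 fell from 1 h to 3 h in wild type and 2 rose and 3 fell in ecap-2. In that interval 14.5% of all tested genes rose and 14.5% fell in wild type, and 20.9% rose and 19.7% fell in ecap-2.

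Among 17 CONSTANS and BBX genes, which include LZF1 of the 68, 2 rose and 6 fell from 1 h to 3 h in wild type and 9 rose and 5 fell in ecap-2, and in ecap-2 the count of risers was 5 after rescaling to a common total FPKM or quantile normalization.
Of 4 terpene and triterpene genes, 1 rose and 1 fell in wild type and 2 rose and 1 fell in ecap-2.
Of 7 genes of chlorophyll breakdown and senescence, 0 rose and 1 fell in each genotype, and of 14 cell wall loosening genes, 3 rose and 4 fell in wild type and 5 rose and 3 fell in ecap-2, a split in ecap-2 that became 4 and 6 after rescaling to a common total and 5 and 5 with quantile normalization.

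Between the genotypes, the late genes differed no more often than genes at large.
At 0 h 24 of 68 differed, 13 higher and 11 lower in ecap-2, where 44.2% of all tested genes differed, 21.2% higher and 23% lower (limma, adjusted p under 0.05).
At 1 h 25 differed, 12 higher and 13 lower, against 39.9% of all tested genes, 17.9% higher and 21.9% lower.
At 3 h 38 differed, 20 higher and 18 lower, against 57.5% of all tested genes, 28.8% higher and 28.6% lower.
The shares of the late genes were 35.3%, 36.8% and 55.9%, each below that of all genes, and the median log2 difference was -0.00 at 0 h, -0.08 at 1 h and 0.07 at 3 h, against -0.00, -0.02 and 0.01 over all genes.
The split depends on scaling: with all libraries rescaled to a common total FPKM it was 12 higher and 17 lower at 0 h, 10 and 21 at 1 h and 12 and 26 at 3 h, with the median log2 difference of all genes at -0.11, -0.10 and -0.20.
With quantile normalization the split was 20 and 11, 15 and 10, and 20 and 20.

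Nearly all differences seen at 0 h were seen again at 3 h. The rule favours this, since it set the same limits on change over time in both genotypes. Nothing is therefore read from the shares of genes that differed at more than 1 time.
Of the 24 genes that differed at 0 h, 23 differed in the same direction at 3 h, or 95.8% of the 0 h genes and 60.5% of the 3 h genes, against 82.7% of the higher and 82.3% of the lower 0 h genes, and 60.7% and 66.2% of the 3 h genes, among all tested.
The 1 h to 3 h shift itself differed in 1 gene, AT1G02300, or 1.47%, where 3.22% of all tested genes differed, 1.79% with a lower shift in ecap-2 (limma, adjusted p under 0.05).
The rule asked for a rise of at least 2 times in both genotypes. Genes that rose in 1 genotype alone were therefore left out, and the share of 1.47% cannot be weighed against 3.22%. The count of 1 gene was unstable, at 0 to 10 under other settings and 0 to 5 with each library left out, the 5 without ecap-2 3 h replicate 3.
At all 3 times 17 genes differed in the same direction, or 25%, against 28.2% of all tested genes, and 26 differed at none, or 38.2%, against 31.5%.

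**Figure D4:**
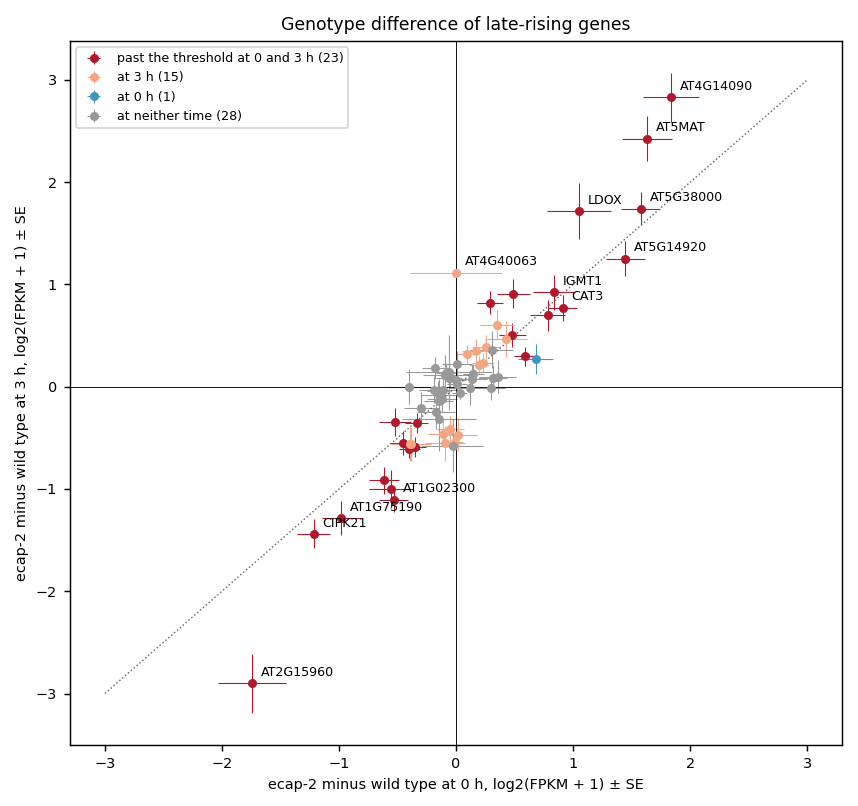
Genotype difference of each late gene at 0 h (horizontal axis) and 3 h (vertical axis), both as ecap-2 minus wild type on the log2(FPKM + 1) scale with SE bars, coloured by the times at which it passed an adjusted p of 0.05, with a dotted line of equal difference; 67 genes are drawn, since AT5G59895 is left out. AT4G14090 stands at 1.84 and 2.83 and AT2G15960 at -1.74 and -2.90, and most genes lie near the line.

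Pigment genes were among the late risers with the largest genotype differences.
LDOX, leucoanthocyanidin dioxygenase, makes the coloured anthocyanidin, and AT4G14090, a UDP-glycosyltransferase, and AT5MAT, an acyltransferase that adds malonyl groups to anthocyanin, act on it afterwards.
All 3 were higher in ecap-2 than in wild type at each time, and MYBL2, a MYB-like repressor of anthocyanin genes, rose late with them without a genotype difference that passed the test.

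AT4G14090 (chr4:8122188-8123835, minus strand) measured 2.45, 2.66 and 2.195 FPKM at 0 h, 2.94, 1.99 and 1.02 at 1 h and 5.57, 6.498 and 3.97 at 3 h in wild type.
In ecap-2 AT4G14090 measured 14.1, 8.51 and 11.8 FPKM at 0 h, 12.5, 9.30 and 8.55 at 1 h and 44.8, 53.7 and 34.3 at 3 h.
Every ecap-2 library lay above every wild type library of its time, and within each genotype every 3 h library lay above all earlier ones.
The ecap-2 mean was 4.71 times the wild type mean at 0 h and 8.28 times at 3 h, with log2 differences of 1.84 ± 0.24 (SE) and 2.83 ± 0.24 (limma, adjusted p = 2.56e-05 and 2.05e-07).
The shift from 1 h to 3 h was 0.90 ± 0.34 larger in ecap-2, which did not pass the test (limma, adjusted p = 0.135).

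AT5MAT measured 1.08, 0.825 and 0.671 FPKM at 0 h, 1.83, 0.787 and 0.588 at 1 h and 3.96, 4.62 and 2.44 at 3 h in wild type.
In ecap-2 AT5MAT measured 5.16, 4.06 and 5.04 FPKM at 0 h, 5.84, 3.95 and 3.62 at 1 h and 24.3, 27.2 and 19.9 at 3 h.
Here too the genotypes did not overlap at any time, and the wild type libraries at 3 h stayed below every ecap-2 library at 3 h while reaching about the ecap-2 level of 1 h.
The log2 difference was 1.63 ± 0.22 at 0 h and 2.43 ± 0.22 at 3 h (limma, adjusted p = 2.42e-05 and 2.34e-07), and the shift difference of 1.00 ± 0.31 did not pass (adjusted p = 0.0789).

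LDOX measured 5.98, 6.36 and 5.58 FPKM at 0 h, 6.36, 5.59 and 2.40 at 1 h and 16.0, 18.9 and 9.97 at 3 h in wild type.
In ecap-2 LDOX measured 10.9, 12.7 and 17.5 FPKM at 0 h, 14.9, 9.44 and 11.6 at 1 h and 50.4, 55.2 and 44.3 at 3 h.
Wild type replicate 3 was the lowest wild type library at 1 h and 3 h for LDOX, AT5MAT and AT4G14090 alike. At 3 h replicate 3 was the lowest ecap-2 library for all of these genes as well.
The log2 difference of LDOX was 1.05 ± 0.27 at 0 h, 1.22 ± 0.27 at 1 h and 1.71 ± 0.27 at 3 h (limma, adjusted p = 0.00643, 0.00277 and 9.87e-05).

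MYBL2 measured 5.03, 8.03 and 11.2 FPKM at 0 h, 6.07, 7.46 and 14.4 at 1 h and 30.3, 26.1 and 41.2 at 3 h in wild type.
In ecap-2 MYBL2 measured 5.29, 7.74 and 7.99 FPKM at 0 h, 4.59, 8.24 and 7.54 at 1 h and 24.3, 21.0 and 32.6 at 3 h.
The genotypes overlapped at every time. Replicate 3 was the highest wild type library at each time, and the highest ecap-2 library at 0 h and 3 h.
The log2 difference at 3 h was -0.31 ± 0.32 (limma, adjusted p = 0.421).
Of the 10 genes on the late anthocyanin list, 5 rose in wild type and 8 in ecap-2 from 1 h to 3 h and 0 fell (limma, adjusted p under 0.05).
Without its 3 late risers the counts were 2 of 7 and 5 of 7.
Of 8 tested anthocyanin regulators, 1 rose and 2 fell in wild type and 3 rose and 2 fell in ecap-2.

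**Figure D5:**
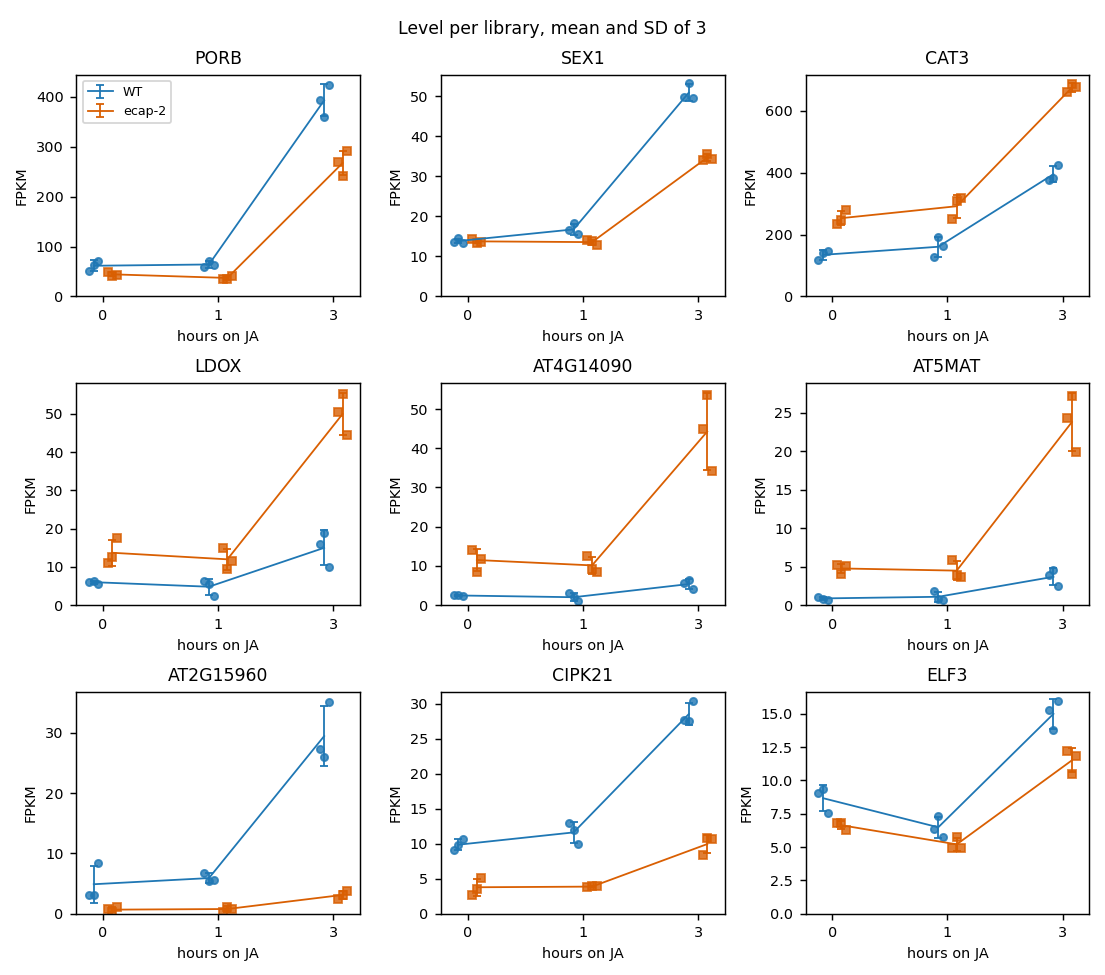
FPKM (vertical axes, from 0) of 9 late genes against hours on JA (horizontal axes), with 1 point for each library and lines through the mean ± SD of 3 libraries, for wild type (blue circles) and ecap-2 (orange squares). All 9 climb from 1 h to 3 h. At 1 h ELF3 stands at 0.774 times its 0 h level in wild type and 0.812 times in ecap-2. SEX1 stands at 1.196 times its 0 h level in wild type (ratios of mean FPKM + 1). The ecap-2 line lies above wild type for CAT3, LDOX, AT4G14090 and AT5MAT. It lies below wild type at 3 h for PORB, SEX1, AT2G15960, CIPK21 and ELF3.

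Genes of light responses and chlorophyll were led by PORB.
PORB, protochlorophyllide oxidoreductase B, carries out the light-driven step of chlorophyll synthesis.
Its gene (chr4:13725546-13727440, plus strand) measured 50.1, 62.8 and 71.7 FPKM at 0 h, 58.1, 70.6 and 63.7 at 1 h and 394, 360.3 and 425 at 3 h in wild type.
In ecap-2 PORB measured 48.4, 41.2 and 43.5 FPKM at 0 h, 34.3, 35.8 and 41.3 at 1 h and 269.6, 242 and 291 at 3 h.
All 3 h libraries lay far above the earlier ones, and ecap-2 lay below wild type at every time without overlap.
The 3 h mean of PORB was 6.05 times the 1 h mean in wild type and 7.04 times in ecap-2, on the FPKM + 1 scale.
The genotype difference in log2 was -0.45 ± 0.12 at 0 h, -0.77 ± 0.12 at 1 h and -0.55 ± 0.12 at 3 h (limma, adjusted p = 0.00518, 7.9e-05 and 0.000709).

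LHB1B1, a light-harvesting chlorophyll-binding protein, had the highest level of the 68 genes.
It measured 577, 930.5 and 903 FPKM at 0 h, 667, 971 and 974 at 1 h and 1823, 1777 and 1957 at 3 h in wild type.
In ecap-2 LHB1B1 measured 523, 566 and 715 FPKM at 0 h, 606, 711 and 686 at 1 h and 1991, 1846 and 1729 at 3 h.
The 3 h libraries of the genotypes overlapped, and no genotype difference passed the test (limma, adjusted p = 0.0738, 0.107 and 0.997 at 0, 1 and 3 h).

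LZF1, a B-box zinc finger protein of light signalling, measured 7.19, 7.68 and 9.23 FPKM at 0 h, 10.9, 11.1 and 9.54 at 1 h and 35.1, 35.3 and 37.7 at 3 h in wild type.
In ecap-2 LZF1 measured 7.90, 8.79 and 7.47 FPKM at 0 h, 7.77, 8.35 and 7.29 at 1 h and 37.1, 37.3 and 35.8 at 3 h.
The genotypes overlapped at 0 h and 3 h but lay apart at 1 h, where ecap-2 was lower.
The 1 h difference was -0.39 ± 0.08 in log2 (limma, adjusted p = 0.0018), and the shift difference of 0.41 ± 0.12 did not pass (adjusted p = 0.0658).
PIF4, a bHLH factor that promotes growth in warmth and shade, went from 24.0 ± 5.43 FPKM (SD, n = 3) at 1 h to 60.7 ± 2.12 at 3 h in wild type and from 16.2 ± 1.246 to 40.8 ± 1.18 in ecap-2.
Its difference was -0.56 ± 0.17 at 3 h (limma, adjusted p = 0.00999).
VTE5, the phytol kinase that feeds phytol from chlorophyll into tocopherol, went from 12.8 ± 1.02 to 32.4 ± 2.57 FPKM in wild type and from 12.001 ± 1.17 to 29.7 ± 1.86 in ecap-2.

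A role group of 3 genes, assigned after the values were seen, holds SEX1, DPE1 and AT3G47800, and SEX1 passed the genotype test at 1 h and 3 h but not at 0 h.
SEX1 is the glucan water dikinase that phosphorylates starch so that it can be broken down.
It measured 13.7, 14.5 and 13.3 FPKM at 0 h, 16.5, 18.3 and 15.5 at 1 h and 49.7, 53.3 and 49.5 at 3 h in wild type.
In ecap-2 SEX1 measured 14.3, 13.3 and 13.7 FPKM at 0 h, 14.0, 13.8 and 12.8 at 1 h and 34.0, 35.5 and 34.4 at 3 h.
The genotypes overlapped at 0 h and lay apart at 1 h and 3 h, with ecap-2 lower.
The log2 difference was -0.01 ± 0.06 at 0 h, -0.28 ± 0.06 at 1 h and -0.54 ± 0.06 at 3 h (limma, adjusted p = 0.936, 0.00227 and 3.16e-06), while the difference of the 1 h to 3 h shift, -0.26 ± 0.09, did not pass (adjusted p = 0.113).

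DPE1, the plastid disproportionating enzyme that recycles short glucans from starch, went from 6.24 ± 1.23 FPKM at 1 h to 19.2 ± 0.949 at 3 h in wild type and from 6.73 ± 0.215 to 20.4 ± 1.27 in ecap-2 (SD, n = 3).
AT3G47800, a galactose mutarotase-like protein, went from 17.4 ± 1.66 to 49.9 ± 6.57 FPKM in wild type and from 22.5 ± 1.60 to 52.5 ± 2.81 in ecap-2.
Neither gene passed the genotype test at 3 h (limma, adjusted p = 0.573 and 0.624), while at 1 h 1 of them was higher in ecap-2 (limma, adjusted p under 0.05).

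Of 7 genes of clock, flowering and transcription, ELF3 alone passed the genotype test, lower in ecap-2 at 0 h and 3 h under every setting run and at 1 h under 20 of 27 other settings. Among all tested genes 44.2%, 39.9% and 57.5% differed at 0, 1 and 3 h, and with 7 genes nothing is read from the count.
ELF3 measured 9.07, 9.36 and 7.58 FPKM at 0 h, 6.32, 7.34 and 5.78 at 1 h and 15.3, 13.8 and 16.0 at 3 h in wild type.
In ecap-2 ELF3 measured 6.83, 6.77 and 6.30 FPKM at 0 h, 4.94, 5.73 and 4.92 at 1 h and 12.2, 10.5 and 11.8 at 3 h.
The genotypes lay apart at each time by narrow gaps.
Its log2 difference was -0.34 ± 0.10 at 0 h, -0.27 ± 0.10 at 1 h and -0.36 ± 0.10 at 3 h (limma, adjusted p = 0.00913, 0.0338 and 0.00445).
At 1 h the adjusted p ran from 0.00899 to 0.163 over the settings, with 0.154 without wild type 1 h replicate 2, 0.0544 without wild type 1 h replicate 1, 0.105 without ecap-2 1 h replicate 1 and 0.103 without ecap-2 1 h replicate 3.
HMGB2, an abundant chromatin protein of the high mobility group, measured 61.2, 60.6 and 66.2 FPKM at 0 h, 48.9, 44.7 and 52.2 at 1 h and 114, 114 and 119.7 at 3 h in wild type.
In ecap-2 HMGB2 measured 61.1, 64.8 and 66.3 FPKM at 0 h, 42.0, 45.6 and 46.8 at 1 h and 112, 112 and 109 at 3 h.
Levels dipped at 1 h and the genotypes overlapped or nearly met at each time, with a log2 difference of -0.06 ± 0.06 at 3 h (limma, adjusted p = 0.423).

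The other 5 were transcription factors and a relative of florigen.
ABF1, a bZIP factor of abscisic acid signalling, went from 1.38 ± 0.387 FPKM (SD, n = 3) at 1 h to 6.08 ± 1.02 at 3 h in wild type and from 1.18 ± 0.161 to 5.90 ± 0.37 in ecap-2.
ATC, a CENTRORADIALIS homologue that delays flowering, went from 14.4 ± 3.87 to 36.7 ± 4.50 in wild type and from 16.5 ± 0.0359 to 36.5 ± 4.22 in ecap-2.
The zinc finger gene IDD2, the CCT-motif gene CIL and the homeodomain-like gene AT5G05090 reached 10.098 ± 0.676, 7.55 ± 0.117 and 5.64 ± 0.366 FPKM at 3 h in wild type.
No genotype difference of these 5 passed the test at any time.

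At 0 h and 3 h the 4 redox genes split evenly between the genotypes, with both catalase genes higher in ecap-2 and WCRKC1 and XDH2 lower. At 1 h 2 were higher and 1 was lower. At 3 h 28.8% of all tested genes were higher and 28.6% lower, and with 4 genes nothing is read from the split.
CAT3, a catalase that removes hydrogen peroxide in peroxisomes, measured 117, 141 and 146 FPKM at 0 h, 127, 192 and 163 at 1 h and 377, 383 and 426 at 3 h in wild type.
In ecap-2 CAT3 measured 234, 247 and 279 FPKM at 0 h, 249, 309 and 317 at 1 h and 661, 688 and 677 at 3 h.
Each ecap-2 library lay above every wild type library of its time.
The ecap-2 mean was 1.88, 1.82 and 1.71 times the wild type mean at 0, 1 and 3 h, with log2 differences of 0.91 ± 0.13, 0.87 ± 0.13 and 0.77 ± 0.13 (limma, adjusted p = 3.79e-05, 6.49e-05 and 8.59e-05).
CAT1, the neighbouring catalase gene, went from 9.70 ± 0.937 FPKM (SD, n = 3) at 1 h to 22.9 ± 2.91 at 3 h in wild type and from 13.4 ± 0.251 to 28.3 ± 1.71 in ecap-2, with a log2 difference of 0.59 ± 0.09 at 0 h and 0.30 ± 0.09 at 3 h (limma, adjusted p = 0.0001 and 0.0114).

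WCRKC1, an atypical thioredoxin, measured 1.58, 2.72 and 3.26 FPKM at 0 h, 1.395, 1.49 and 2.92 at 1 h and 15.1, 14.9 and 18.3 at 3 h in wild type.
In ecap-2 WCRKC1 measured 0.977, 1.43 and 1.69 FPKM at 0 h, 1.33, 1.39 and 0.975 at 1 h and 7.51, 7.25 and 7.80 at 3 h.
At 3 h all ecap-2 libraries lay below all wild type libraries.
The wild type mean was 2.14 times the ecap-2 mean at 3 h (limma, adjusted p = 0.000301).
XDH2, a xanthine dehydrogenase of purine breakdown, measured 2.27, 2.49 and 2.33 FPKM at 0 h, 1.77, 1.86 and 1.33 at 1 h and 8.31, 7.71 and 7.92 at 3 h in wild type.
In ecap-2 XDH2 measured 1.51, 1.59 and 1.55 FPKM at 0 h, 1.12, 1.21 and 1.08 at 1 h and 5.20, 4.43 and 5.01 at 3 h.
The genotypes did not overlap at any time, and the log2 difference at 3 h was -0.61 ± 0.09 (limma, adjusted p = 2.06e-05).

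Among 8 genes grouped under defence and secondary metabolism, 4 were higher in ecap-2 at 3 h and 1 was lower, where 28.8% of all tested genes were higher and 28.6% lower; with 8 genes nothing is read from that share.
IGMT1, an O-methyltransferase of indole glucosinolates, measured 9.84, 8.81 and 9.12 FPKM at 0 h, 13.1, 12.2 and 12.5 at 1 h and 51.7, 47.4 and 44.9 at 3 h in wild type.
In ecap-2 IGMT1 measured 19.0, 16.7 and 16.2 FPKM at 0 h, 20.0, 18.9 and 10.9 at 1 h and 114, 93.7 and 72.5 at 3 h.
The genotypes lay apart at 0 h and 3 h and overlapped at 1 h, where ecap-2 replicate 3 was low.
The log2 difference was 0.83 ± 0.18 at 0 h, 0.33 ± 0.18 at 1 h and 0.92 ± 0.18 at 3 h (limma, adjusted p = 0.00133, 0.152 and 0.00036).

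AT5G38000, a zinc-binding dehydrogenase family protein, was nearly silent in wild type before 3 h, at 0.248, 0.585 and 0.856 FPKM at 0 h, 0.525, 0.637 and 0.337 at 1 h and 3.37, 3.90 and 2.42 at 3 h.
In ecap-2 AT5G38000 measured 3.31, 3.73 and 3.77 FPKM at 0 h, 3.22, 3.97 and 2.90 at 1 h and 13.9, 15.0 and 10.5 at 3 h.
The 0 h libraries of ecap-2 were about as high as the 3 h libraries of wild type.
The log2 difference was 1.58 ± 0.16, 1.54 ± 0.16 and 1.74 ± 0.16 at 0, 1 and 3 h (limma, adjusted p = 1.62e-06, 2.54e-06 and 2.89e-07).
MES1, an esterase that releases hormones from their methyl esters, measured 5.03, 6.47 and 6.69 FPKM at 0 h, 5.61, 6.38 and 5.67 at 1 h and 15.1, 13.5 and 14.0 at 3 h in wild type.
In ecap-2 MES1 measured 6.42, 7.66 and 8.84 FPKM at 0 h, 11.2, 10.8 and 9.69 at 1 h and 27.8, 27.2 and 22.7 at 3 h.
The genotypes overlapped at 0 h and lay apart afterwards, with a log2 difference of 0.82 ± 0.11 at 3 h (limma, adjusted p = 1.29e-05).

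AT5G38030, a MATE efflux protein, reached 30.8 ± 2.57 FPKM at 3 h in wild type and 40.8 ± 6.61 in ecap-2 (SD, n = 3; limma, adjusted p = 0.011).
IPMI2, a subunit of isopropylmalate isomerase in leucine and glucosinolate chain synthesis, reached 67.3 ± 4.31 in wild type and 45.7 ± 5.49 in ecap-2 (adjusted p = 0.0119).
The cytochrome P450 genes CYP76C1 and CYP71B20 reached 22.8 ± 0.943 and 19.1 ± 2.45 FPKM in wild type, and PMR5, an acyl-esterase family protein named for powdery mildew resistance, 9.92 ± 0.599, with no genotype difference at 3 h that passed the test.

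Lipid and cofactor genes made up 6 of the late risers.
ADS2, a fatty acid desaturase, was the most abundant of them and went from 52.2 ± 1.76 FPKM (SD, n = 3) at 1 h to 108 ± 5.48 at 3 h in wild type and from 45.8 ± 3.45 to 119 ± 5.00 in ecap-2.
TAG1, the acyltransferase that completes storage oil, went from 4.07 ± 0.559 to 9.30 ± 0.622 in wild type and from 4.83 ± 0.269 to 11.0 ± 0.85 in the mutant, and was higher there at 3 h (limma, adjusted p = 0.0458). That call lay near the threshold and may depend on scaling, since the median 3 h difference of all genes was -0.20 after rescaling to a common total FPKM.
AT4G31050, octanoyltransferase LIP2 of lipoate synthesis, was lower in ecap-2 at 3 h, at 8.06 ± 1.02 against 11.49 ± 1.89 FPKM (log2 difference -0.46 ± 0.12, limma, adjusted p = 0.00481).
AT3G23080, a lipid transport family protein, was lower in ecap-2 at 3 h as well, at 24.0 ± 1.80 against 36.0 ± 1.98 FPKM (adjusted p = 0.00821).
The riboflavin synthesis gene RIBA2 and the GDSL lipase gene AT4G01130 reached 6.52 ± 0.82 and 4.95 ± 0.483 FPKM in wild type, without a genotype difference that passed.

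Of 4 chaperone and related genes, Fes1B had the steepest rise among the late genes above 0 at 1 h, while the median ratio of the 4 from 1 h to 3 h was 2.42 in wild type.
Fes1B, a relative of the yeast exchange factor Fes1 that works with Hsp70, measured 0.541, 0.553 and 1.29 FPKM at 0 h, 0.669, 0.832 and 1.06 at 1 h and 15.5, 12.7 and 17.1 at 3 h in wild type.
In ecap-2 Fes1B measured 0.402, 0.492 and 0.828 FPKM at 0 h, 0.423, 0.827 and 0.852 at 1 h and 11.48, 12.4 and 13.4 at 3 h.
It went from about 1 FPKM or less to above 10 FPKM in all 6 libraries at 3 h, with a log2 genotype difference of -0.25 ± 0.16 (limma, adjusted p = 0.195).
J11, a DnaJ-domain co-chaperone, measured 37.5, 61.2 and 78.0 FPKM at 0 h, 43.4, 41.2 and 88.4 at 1 h and 104, 98.9 and 157 at 3 h in wild type.
In ecap-2 J11 measured 39.9, 63.9 and 62.3 FPKM at 0 h, 34.5, 59.0 and 75.5 at 1 h and 118, 110.2 and 169 at 3 h.
Replicate 3 was the highest wild type library at each time and the highest ecap-2 library at 1 h and 3 h, and the genotypes overlapped at every time.
AT1G56300, another DnaJ-domain protein, reached 12.4 ± 1.56 FPKM in wild type and 13.6 ± 0.828 in ecap-2, and NRP1, a nodulin-related protein, 50.5 ± 6.18 and 77.2 ± 6.56 (limma, adjusted p = 0.235 and 0.00221).

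Signalling, transport and turnover made up the largest role group, assigned after the values were seen, and of its 14 genes 6 were higher and 5 lower in ecap-2 at 3 h, against 28.8% and 28.6% of all tested genes.
CIPK21, a kinase driven by calcineurin B-like calcium sensors, measured 9.04, 9.87 and 10.6 FPKM at 0 h, 12.9, 11.998 and 9.89 at 1 h and 27.7, 27.5 and 30.3 at 3 h in wild type.
In ecap-2 CIPK21 measured 2.70, 3.47 and 5.10 FPKM at 0 h, 3.76, 3.89 and 3.91 at 1 h and 8.39, 10.8 and 10.6 at 3 h.
The genotypes did not overlap at any time, and the 3 h libraries of ecap-2 lay near the 0 h level of wild type.
The wild type mean was 2.62, 3.01 and 2.87 times the ecap-2 mean at 0, 1 and 3 h, with log2 differences of -1.22 ± 0.14, -1.37 ± 0.14 and -1.44 ± 0.14 (limma, adjusted p = 5.2e-06, 1.92e-06 and 4.71e-07).

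AT5G14920, the gibberellin-regulated protein GASA14, measured 6.75, 7.80 and 8.29 FPKM at 0 h, 9.18, 11.8 and 9.40 at 1 h and 31.1, 24.5 and 33.7 at 3 h in wild type.
In ecap-2 AT5G14920 measured 24.5, 18.2 and 25.1 FPKM at 0 h, 23.5, 33.1 and 28.1 at 1 h and 90.2, 66.4 and 61.6 at 3 h.
All ecap-2 libraries lay above all wild type libraries of their time, and ecap-2 at 1 h was close to wild type at 3 h.
The ecap-2 mean was 2.97, 2.78 and 2.44 times the wild type mean at 0, 1 and 3 h (limma, adjusted p = 6.6e-06, 1.22e-05 and 1.25e-05).

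AT1G02300, a cysteine proteinase superfamily protein, was the sole late gene whose shift differed between the genotypes.
It measured 3.17, 3.27 and 2.97 FPKM at 0 h, 2.22, 2.90 and 2.48 at 1 h and 12.9, 12.3 and 11.0 at 3 h in wild type.
In ecap-2 AT1G02300 measured 2.16, 1.37 and 2.12 FPKM at 0 h, 1.56, 1.58 and 1.57 at 1 h and 5.10, 4.21 and 6.03 at 3 h.
ecap-2 lay below wild type at every time, and its 3 h libraries reached less than the wild type ones.
The ratio from 1 h to 3 h was 3.70 in wild type and 2.38 in ecap-2, and the shift was -0.65 ± 0.17 in log2, ecap-2 minus wild type (limma, adjusted p = 0.0496).
That call lay at the threshold and was kept under 10 of 26 other settings, where the adjusted p ran from 0.00765 to 0.149.

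CHX16, a cation/proton exchanger, reached 7.82 ± 1.61 FPKM at 3 h in ecap-2 against 3.66 ± 0.506 in wild type (SD, n = 3; log2 difference 0.91 ± 0.14, limma, adjusted p = 4.95e-05).
AT4G05150, a Phox/Bem1p family protein, was higher in ecap-2 at each time and reached 68.5 ± 7.52 against 41.7 ± 1.30 FPKM (adjusted p = 0.000967).
AT5G62720, a membrane protein of the HPP family, reached 108 ± 9.68 against 75.8 ± 8.78 FPKM (adjusted p = 0.00123).
The nucleoside triphosphate hydrolase family gene AT1G33970 and the kinase gene AT1G18390 were also higher in ecap-2 at 3 h, by smaller log2 differences of 0.24 ± 0.09 and 0.35 ± 0.12 (limma, adjusted p = 0.0403 and 0.0187). After rescaling to a common total FPKM the median 3 h difference of all genes was -0.20, so calls of this size may depend on scaling.

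AT1G14240, a nucleoside phosphatase, was lower in ecap-2 at each time and reached 14.8 ± 2.12 against 28.8 ± 4.81 FPKM at 3 h (log2 difference -0.92 ± 0.13, limma, adjusted p = 1.81e-05).
UMAMIT44, an amino acid transporter family protein, was lower at 3 h, at 10.2 ± 0.247 against 15.8 ± 0.435 FPKM (adjusted p = 7.1e-05).
AGD13, an ARF-GAP protein, was lower at 3 h by -0.34 ± 0.14 in log2 (limma, adjusted p = 0.0442).
AT2G30600, the BTB/POZ gene with an evening element, reached 102 ± 4.88 FPKM in wild type and 68.003 ± 6.49 in ecap-2 without overlap, but the fit shares 1 spread over all groups and the 0 h libraries of wild type ran from 18.0 to 37.8, and the difference did not pass (limma, adjusted p = 0.0726).
The kinase gene AT1G54820 and the RING gene AT2G18670 did not pass at any time.

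Of 4 genes of organelle gene expression and import, AT4G26370, an antitermination NusB-domain protein with an evening element, went from 22.7 ± 0.788 FPKM (SD, n = 3) at 1 h to 52.0 ± 2.79 at 3 h in wild type and from 20.5 ± 2.11 to 54.7 ± 4.60 in ecap-2.
The translation initiation factor gene AT4G30690 reached 28.8 ± 4.11 FPKM in wild type and 28.2 ± 4.36 in ecap-2.
AT4G26670, a Tim17/Tim22/Tim23 family protein, was higher in ecap-2 at 3 h by 0.32 ± 0.10 in log2, and AT5G02860, a pentatricopeptide repeat protein, was lower by -0.41 ± 0.12 (limma, adjusted p = 0.00929 and 0.0074).

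Among 9 little characterised genes, AT2G15960, annotated as a stress-induced protein, had the largest negative genotype difference of the 68.
Its gene (chr2:6947096-6947866, plus strand), the gene with 2 evening elements shown above, measured 3.02, 3.13 and 8.44 FPKM at 0 h, 6.78, 5.35 and 5.52 at 1 h and 27.2, 26.005 and 35.1 at 3 h in wild type.
In ecap-2 AT2G15960 measured 0.708, 0.216 and 1.01 FPKM at 0 h, 0.316, 1.15 and 0.784 at 1 h and 2.38, 3.08 and 3.81 at 3 h.
The genotypes did not overlap at any time, and the 3 h libraries of ecap-2 lay near the lower 0 h libraries of wild type, whose replicate 3 stood above the other 0 h libraries.
The wild type mean was 7.54 times the ecap-2 mean at 0 h and 9.53 times at 3 h, with log2 differences of -1.74 ± 0.29 and -2.90 ± 0.29 (limma, adjusted p = 0.000202 and 9.86e-07).
The shift difference of -0.90 ± 0.41 did not pass (adjusted p = 0.207).

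AT1G75190 measured 2.75, 2.74 and 3.85 FPKM at 0 h, 2.23, 1.60 and 2.45 at 1 h and 10.6, 8.51 and 10.7 at 3 h in wild type.
In ecap-2 AT1G75190 measured 0.83, 1.08 and 1.31 FPKM at 0 h, 0.275, 0.683 and 0.954 at 1 h and 2.96, 3.41 and 4.12 at 3 h.
The genotypes lay apart at each time, with ecap-2 lower, and the log2 difference was -1.28 ± 0.16 at 3 h (limma, adjusted p = 6.96e-06).

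AT2G03310 measured 3.06, 4.01 and 4.81 FPKM at 0 h, 3.73, 4.19 and 5.32 at 1 h and 22.2, 18.3 and 19.7 at 3 h in wild type.
In ecap-2 AT2G03310 measured 3.71, 3.93 and 4.19 FPKM at 0 h, 5.32, 4.60 and 4.82 at 1 h and 21.5, 23.3 and 26.1 at 3 h.
Levels at 3 h were several times those at 1 h in both, with no genotype difference that passed (limma, adjusted p = 0.136 at 3 h).
AT4G32340, a tetratricopeptide repeat protein, measured 5.66, 4.16 and 5.71 FPKM at 0 h, 6.02, 3.39 and 5.59 at 1 h and 20.4, 17.7 and 18.7 at 3 h in wild type.
In ecap-2 AT4G32340 measured 4.62, 5.26 and 5.79 FPKM at 0 h, 3.75, 5.10 and 4.38 at 1 h and 13.9, 11.2 and 15.2 at 3 h.
The genotypes lay apart at 3 h, with ecap-2 lower by -0.47 ± 0.16 in log2 (limma, adjusted p = 0.0197).
Leaving out replicate 1 of wild type at 3 h ended that call, at an adjusted p of 0.0694, as did leaving out replicate 2 of ecap-2 at 3 h, at 0.102 (limma).

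AT1G13930, annotated as an oleosin-B3-like protein, was highly abundant in wild type, at 284, 334 and 349 FPKM at 0 h, 274, 325 and 294 at 1 h and 727, 751 and 743 at 3 h.
In ecap-2 AT1G13930 measured 313, 295 and 322 FPKM at 0 h, 267, 259 and 240.2 at 1 h and 808, 894 and 665 at 3 h.
The 3 h libraries lay above all earlier ones, and the genotypes did not differ beyond the test (limma, adjusted p = 0.497 at 3 h).
AT1G45165 and AT5G25210 reached 11.8 ± 2.04 and 4.70 ± 0.76 FPKM in wild type at 3 h, and 14.4 ± 1.98 and 6.86 ± 0.962 in ecap-2.
AT1G45165 was higher in ecap-2 at 0 h and 1 h, and AT5G25210 at 3 h (limma, adjusted p = 0.00162, 0.000495 and 0.0336).

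The remaining pair of uncharacterized genes was seen at 3 h alone.
AT4G40063, a gene of 249 bases, was listed at 0 in every library of 0 h and 1 h and measured 5.45, 2.33 and 3.15 FPKM in the 3 h libraries of wild type, with 3.44, 7.91 and 21.9 in those of ecap-2.
AT5G59895, of 183 bases, was listed at 0 in the same libraries and measured 47.9, 0 and 0 FPKM in the 3 h libraries of wild type and 89.9, 143 and 0 in those of ecap-2.
The libraries of a group disagreed widely for both, and for AT5G59895 the zeros fell among the 3 h libraries too.
Zeros of this kind were not confined to the late genes, since 249 listed genes were above 0 at 3 h alone in 1 or more libraries, 193 at 0 h alone and 149 at 1 h alone. With 3 or more libraries above 0, as in this pair, the counts were smaller, at 11, 15 and 10.
A listed 0 can be a failed estimate, so no ratio is given for this pair. The genotype difference of AT4G40063 at 3 h was 1.12 ± 0.39 in log2 (limma, adjusted p = 0.0245). That fit shares 1 spread over all groups, including those at 0 in every library. With only the libraries compared the adjusted p was 0.21 (limma). The call was also lost without wild type 3 h replicate 2 or 3, or without ecap-2 3 h replicate 3. It was kept under 21 of 26 other settings, with an adjusted p from 0.000252 to 0.21, and nothing is read from it.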

How the data were processed

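The deposited FPKM values per gene of 18 libraries were used as the authors made them, with TopHat2, Cufflinks and TAIR10 named in the submitters' processing notes. Read counts and strand settings are not given in the sources used here, so depth was estimated only relative to other libraries.

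Differences were tested with limma 3.58.1 (R 4.3.3, statmod 1.5.0) on log2(FPKM + 1), with a mean for each of 6 groups and trended, robust empirical Bayes over all 18 libraries. Testing was limited to the 17835 of 22209 genes that reached 1 FPKM in 3 or more libraries, and p-values were adjusted by the Benjamini-Hochberg method within each of 8 comparisons. A fold change on this scale understates the change of low genes. The test was checked on simulated data. Ratios in the rule used FPKM + 1, and ratios of means between genotypes used FPKM. Promoters, gene positions and symbols came from RefSeq TAIR10.1, in which 22122 listed genes were matched by locus. Python 3.11.15, numpy 2.4.6, pandas 2.3.3 and matplotlib 3.10.9 made the other values.

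The 68 genes, the 12 pathway lists and the tests were chosen with earlier results of these data known, and the role groups were assigned after their values had been seen. Values in every library are given for 27 genes by rule: the largest ratios from 1 h to 3 h, the highest levels, the genotype differences of smallest p, and genes on a pathway list; SEX1 was added after its values were seen. Same-numbered libraries of the genotypes were compared, and alternatives covered the pseudocount, filter, scaling, spread, replicate block and each library left out. The promoter sequence of AT4G26370 is not reported here.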

Additional observations from a re-analysis of the deposited data

Results flagged for a closer look

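AT1G02300, a cysteine proteinase superfamily gene, was picked out because its shift from 1 h to 3 h differed between the genotypes by a test of the difference itself. The shift was -0.65 ± 0.17 (SE) on the log2 scale, ecap-2 minus wild type (limma, adjusted p = 0.0496), and the adjusted p ran from 0.00765 to 0.149 over 26 other settings. Groups of 3 libraries were too small for a search for outlying libraries.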

How the results depend on the processing

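The genotype counts at 0, 1 and 3 h stayed within 1.5 times their values of 24, 25 and 38 under every setting run: 19 to 32, 21 to 31 and 29 to 40 under other pseudocounts, filters, scalings, spreads and the replicate block, and 23 to 28, 22 to 28 and 32 to 39 with each library left out. The count of genes whose shift differed, 1, did not hold. It was 0 with a pseudocount of 0.1, with no filter, with a mean FPKM of at least 5 and with plain empirical Bayes, 10 with a pseudocount of 5, 3 after rescaling to a common total, and 2 with quantile normalization or only the libraries compared. With each library left out it ran from 0 to 5, the 5 without ecap-2 3 h replicate 3. The cause was not tested.

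The number of late genes was 35 with FPKM + 5 in the rule (27 shared with the 68), 10 for a rise of at least 3-fold and 38 for tighter limits at 1 h, the last pair narrower by construction. It was 50 after rescaling to a common total (49 shared), 72 with FPKM + 0.1 (56 shared), 64 with quantile normalization (60 shared) and 63 with group medians (57 shared). With each library left out it ran from 62 to 73, and 39 genes were picked every time. Of 50 calls of named genes, 42 held under every setting, 8 were lost under 1 or more, and 0 reversed. The lost ones included MES1 and WCRKC1 at 0 h, ELF3 and XDH2 at 1 h and AT4G32340 at 3 h.

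Same-numbered libraries correlated from -0.10 to 0.32, over 0.1 in 4 of 9 pairs, so the numbers were not taken as pairs. At 1 h every library correlated best with its own number. With a replicate block the counts were 32, 28 and 39 at 0, 1 and 3 h and 3 for the shift. Promoter windows of 500 and 1000 bases were chosen after seeing the data, as were the scalings of the clock lists, where 6 to 7 of the day and evening genes rose in wild type and 7 to 8 in ecap-2, and 7 morning genes fell in each. Levels under about 1 FPKM and zeros limit what can be said of AT4G40063 and AT5G59895.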
